A study of Mus musculus with 24 samples.

Results

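The nuclear-encoded subunits of the respiratory chain and of ATP synthase were followed across mouse livers that had been dosed with furan or with vehicle and then preserved in several ways. Members were taken by symbol: genes named Nduf with a following a, b, c, s or v and a number, genes starting with Uqcr or Atp5, Cox4 to Cox8 genes with a letter, Cyc1, and Sdha to Sdhd. This rule found 85 of the 24015 gene symbols in the count table, with 35 in complex I, 4 in complex II, 9 in complex III, 20 in complex IV and 17 in complex V. Ndufa4 and its relative Ndufa4l2 were counted with complex IV, where Ndufa4 is now placed. The symbols also bring in 3 proteins that are not subunits: Atp5s (coupling factor B), Atp5sl (a protein needed to assemble complex I) and Cox7a2l (a factor of respiratory supercomplexes). Subunits with other names, such as Usmg5 and 2010107E04Rik of complex V, are missed by the rule.

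The animals were female B6C3F1 hybrid mice, 5 to 6 weeks old at purchase. Furan was given by gavage at a daily dose of 8 mg per kg over 21 days, dissolved in corn oil. Control mice received the oil only, and livers were taken 4 h after the last dose. Furan is a volatile food contaminant that damages the rodent liver. The 6 groups were furan and control livers snap frozen in liquid nitrogen, furan and control livers held in formalin for 18 h and embedded in paraffin, and furan and control livers held in formalin for 3 weeks and embedded in paraffin. Each group held 4 animals (furan 41 to 44, control 2, 3, 4 and 6), and the same liver gave a piece to each preservation. Frozen and fixed pieces went through different RNA extraction kits, and the 3-week blocks gave 2 sections against 1 for the 18 h blocks, so that preservation, kit, input and piece of liver cannot be told apart. Total RNA was sequenced after removal of ribosomal RNA.

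Complex I takes electrons from NADH and complex II, succinate dehydrogenase, takes them from succinate. Both pass them through ubiquinone to complex III, which hands them on cytochrome c to complex IV, where oxygen is reduced. Complexes I, III and IV pump protons, and complex V uses the gradient to make ATP. Most subunits are encoded in the nucleus and imported, while a small catalytic core is encoded in mitochondrial DNA, and all 4 subunits of complex II are nuclear. Hepatocytes are rich in mitochondria and rely on this chain for gluconeogenesis, urea synthesis and fatty acid oxidation. The mitochondrially encoded subunits had no row in the table.

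Promoters of these genes are known for sites of NRF1, a factor named for its control of respiratory genes. RefSeq promoter sequences (GRCm38.p6, 250 bases before to 50 after each gene's start) matched 69 of the 85 members. The letters GCGCA and GCGC with 1 base between them, read on both strands, stood in 17 of these 69 promoters (24.6%), against 1402 of 27025 promoters of all genes (5.19%). They were found in 7 promoters of complex I genes (Ndufa11, Ndufa5, Ndufa6, Ndufa8, Ndufb4, Ndufs5 and Ndufs6), 2 of complex II (Sdha and Sdhd), 1 each of complexes III (Uqcrc1) and IV (Cox6a1) and 6 of complex V (Atp5c1, Atp5g2, Atp5g3, Atp5h, Atp5k and Atp5o). The core of sites bound by the ETS factor GABP, CCGGAAG, stood in 16 of 69 (23.2%) against 9.93% of all promoters, and both sequences in 4 (5.80%) against 1.01%. TATAAA was in 7 of 69 (10.1%), against 15.7% of all. The background holds every symbol with a promoter sequence. It was not limited to genes expressed in liver or matched for base composition. A match is a run of letters and not a shown binding site. One 30-base window per complex is printed as an example of what the promoters share, 5′ to 3′ on the gene's own strand, with the matched letters in capitals. The windows lie at chr15:82354249-82354278 on the minus strand for Ndufa6, chr9:50603909-50603938 minus for Sdhd, chr9:108936643-108936672 plus for Uqcrc1, chr5:115349101-115349130 minus for Cox6a1 and chr2:73911295-73911324 minus for Atp5g3.
Ndufa6: ccgtggcaccGCGCGTGCGCacgctgaagg
Sdhd: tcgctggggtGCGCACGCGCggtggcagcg
Uqcrc1: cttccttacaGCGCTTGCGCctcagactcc
Cox6a1: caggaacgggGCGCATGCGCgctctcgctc
Atp5g3: gagccgcaccGCGCTTGCGCgcccagcccc
The windows for Ndufa6 and Atp5g3 lie wholly past the annotated gene start, that of Uqcrc1 spans it, and those of Sdhd and Cox6a1 end before it.

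One member, Ndufs5, an accessory subunit of complex I, had no count in any of the 24 libraries although other complex I subunits were abundant. A processed pseudogene, BC002163 on chromosome 16, had 190 to 259 counts in frozen, 65 to 111 in 18 h and 0 to 48 in 3-week libraries. It matched 319 of the 321 coding bases of Ndufs5, which lies on chromosome 4, at 99.4% identity with 2 mismatches, T81C and A105G, counted from the A of the start codon with the Ndufs5 base first. The stretch from coding base 71 to 115 is shown because it holds both differences, in capitals (Ensembl transcripts, GRCm38).
Ndufs5: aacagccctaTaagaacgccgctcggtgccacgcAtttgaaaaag
BC002163: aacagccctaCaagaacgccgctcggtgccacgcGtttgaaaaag
Reads of the 319 shared bases that cover neither difference cannot be told apart by sequence. The Ndufs5 transcript has 525 bases, so part of it lies outside the stretch aligned to this copy. How the counting treated reads with several places is not given in the sources used here, so its part in the 0 was not tested. In all, 11 members had a gene or pseudogene at 95% identity or more over at least 50% of the transcript. Cox7c, with 14 to 44 counts in frozen libraries and a copy at 99.4% identity, Atp5g2 with 5 to 20 and copies at 100%, and Atp5l with 7 to 20 and 9 copies had few counts for genes of this kind. The values of these 4 members are uncertain, and the part of the copies in their few or absent counts was not tested. Uqcrb, Atp5h, Atp5k, Atp5o, Ndufb11, Ndufs3 and Ndufs6 also had copies but had at least 303 counts in each frozen library.

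Libraries held 38 to 49.3 megacounts in frozen tissue, 22.9 to 28.1 megacounts after 18 h and 5.56 to 11 megacounts after 3 weeks. All 10 hepatocyte markers, among them Alb and Ttr, were present in each group, with a summed level of 190890 to 219025 CPM (counts scaled to a common library size) over the 8 frozen libraries. The frozen library of control animal 3 stood apart: of 72 members with at least 5 CPM it gave the highest of the 8 frozen values in 22 and the lowest in 38, or 83.3%, against 6.94% to 50% for the other libraries. Over all genes the share was 66.7%, against 13.1% to 26.1%. Its members with under 45% GC in the transcript lay a median 0.61 log2 units below the other 7 libraries and those with at least 55% GC 0.37 above. The deviations of the members had an SD of 0.86 log2 units in this library and of 0.11 to 0.23 in the other 7. Those also varied with GC content, at a Spearman's rho of -0.60 to 0.02, or of -0.57 to 0.46 with control animal 3 left out of the mean they are set against, while rho was 0.52 in control animal 3. Of the fixed pieces of the same liver, the 18 h library had 9.86% of members outside the range of the other 7, with 19.7% to 46.5% for the others, and the 3-week library 28.2%, with 21.1% to 29.6% for the others. Counts of striated muscle genes appeared in 4 fixed libraries: actin Acta1 had 212 counts in furan animal 44 at 18 h and, at 3 weeks, 679 in furan animal 42, 683 in control animal 3 and 130 in control animal 6, against 0 to 3 in the other 20. The counts of calls below are also given without these libraries.

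**Figure D1:**
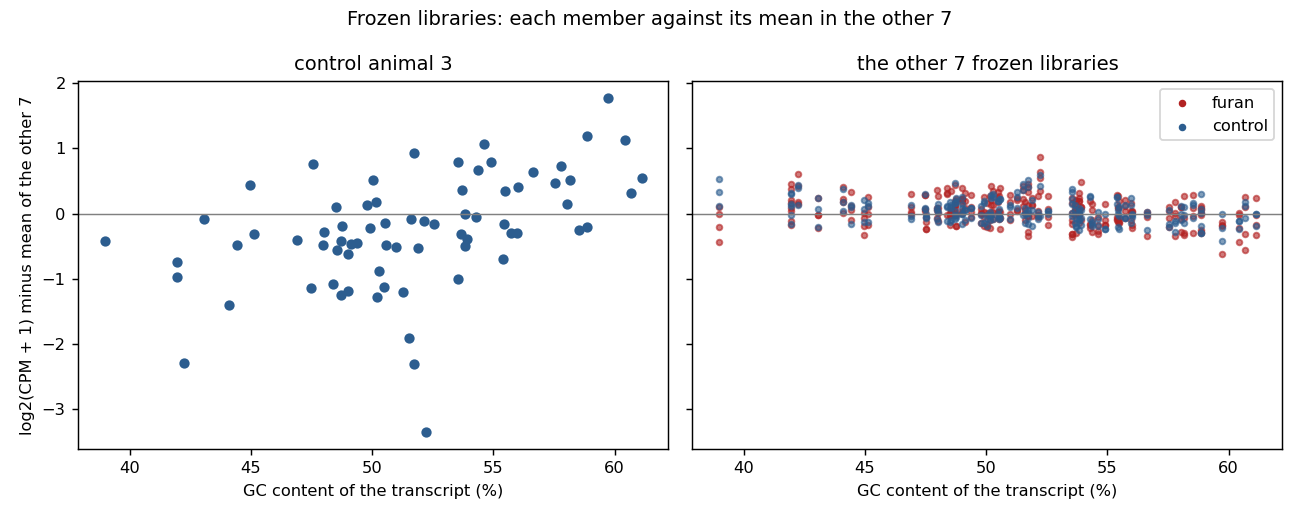
Each point is a member in a frozen library. The x axis is the GC content of its transcript in percent, and the y axis is its log2(CPM + 1) in that library minus the mean of the other 7 frozen libraries, for control animal 3 (left) and for the other 7 libraries (right). In control animal 3 the members below 45% GC had a median of -0.61 and those at or above 55% GC a median of 0.37, while deviations in the other libraries have an SD of 0.11 to 0.23 log2 units, against 0.86.

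Levels were compared between genes as CPM per kilobase of the longest transcript (RPKM) in control frozen livers, given as mean ± SD of 4 animals. The catalytic subunits of the F1 part of ATP synthase led, Atp5b (beta) with 779 ± 45.8 RPKM and Atp5a1 (alpha) with 497 ± 29.2 RPKM. Cox4i1, the regulatory subunit of cytochrome oxidase, followed with 397 ± 26.9 RPKM. The steps between these 3 were larger than their SD. From there to Uqcrc2, a core protein of complex III and 16th in order with 190.5 ± 31.4 RPKM, neighbours differed by less than the larger of their SDs. The SD reached 194 RPKM for Cox6a1, whose highest control value was that of animal 3. Without that library Cox6a1 had 273 ± 9.39 RPKM (n = 3). The succinate dehydrogenase genes had 217 ± 31.1 RPKM for the membrane anchor Sdhd, 207 ± 15.6 RPKM for the flavoprotein Sdha and 206 ± 67.7 RPKM for the iron-sulfur protein Sdhb, but 51.8 ± 7.45 RPKM for Sdhc, the other anchor. Without animal 3 Sdhb had 172 ± 14.7 RPKM. Among members of low level were Atp5sl (20.7 ± 5.22 RPKM), the muscle isoform Cox7a1 (4.66 ± 2.00 RPKM), Atp5s (4.28 ± 1.14 RPKM) and Atp5g1 (1.01 ± 0.341 RPKM). The last was scaled by a transcript of 4715 bases when its shortest has 596. Members with fewer counts, such as Atp5l, Atp5g2 and Ndufa4l2, are not listed here. Among the summed CPM of all members, complex V was the largest, with 4030.7 ± 323 CPM in furan and 3817.1 ± 257 CPM in control frozen livers, though sums over genes of different length are no molar amounts.

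Within subunit families the liver isoform held nearly all counts after scaling by length. The share of Cox4i1 over Cox4i2 (an isoform of lung) was at least 99.6% in the mean of every group, Cox6a1 over the muscle isoform Cox6a2 at least 99.6%, Cox6b1 over the testis isoform Cox6b2 at least 98.7%, Cox8a over Cox8b and Cox8c at least 98.7%, and Ndufa4 over Ndufa4l2 at least 98.9%. Cox7b2 and Cox8c had no count, which allows shares of up to 0.0298% for Cox7b2 in furan frozen livers and up to 0.395% in control 3-week livers (3 counts over the group, scaled by length, counting error only). Atp5g3 held 99.5% of the scaled counts of the 3 genes for the c subunit, the rotor ring, in both furan and control frozen livers. Atp5g2 had 5 to 20 counts per frozen library and copies at 100% identity, so its part in this share is uncertain. Atp5g1 was scaled by a transcript of 4715 bases when its shortest has 596, which lowers its part. Cox7a1 took 0.962% ± 0.155 of the Cox7a counts in furan and 2.06% ± 1.31 in control frozen livers, and 1.34% ± 0.570 in furan and 2.45% ± 0.519 in control livers at 18 h (SD, n = 4). After 3 weeks its shares of 3.58% ± 4.39 in furan and 7.68% ± 6.30 in control livers had an SD as large as the mean or nearly so. Without the libraries that stand apart or hold muscle genes, the shares were 1.41% ± 0.220 in control frozen livers (n = 3), 1.35% ± 0.698 in furan livers at 18 h (n = 3), and 1.56% ± 2.08 in furan (n = 3) and 8.01% ± 3.30 in control livers (n = 2) at 3 weeks. Among the 4 libraries with muscle genes, Cox6a2 had 12 counts in furan animal 42 and 9 in control animal 6 at 3 weeks, and 0 in the others. Cox8b had 17 counts in control animal 3 and 0 in the other 3. Cox7a1 had 21 counts in furan animal 42, 77 in control animal 3 and 0 in control animal 6 at 3 weeks, and 16 in furan animal 44 at 18 h. In the other 20 libraries Cox6a2 had at most 5 counts, Cox8b at most 8 and Cox7a1 at most 95.

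In fixed liver the respiratory chain genes took a smaller part of the counts than in frozen liver. Members made up 0.818% to 0.970% of all counts in frozen libraries, 0.608% to 0.674% after 18 h in formalin and 0.462% to 0.515% after 3 weeks. In furan livers the summed level was 10828.8 ± 826 CPM frozen, 6036.7 ± 344 CPM after 18 h and 4317 ± 195 CPM after 3 weeks. In control livers it was 10445.9 ± 628, 6083.6 ± 198 and 4390.2 ± 175 CPM (SD, n = 4, scaled by TMM). These are relative values of bulk samples. Fewer cells of a type, less RNA per cell, a larger part of other RNA and the differing kit and input cannot be told apart.

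**Figure D2:**
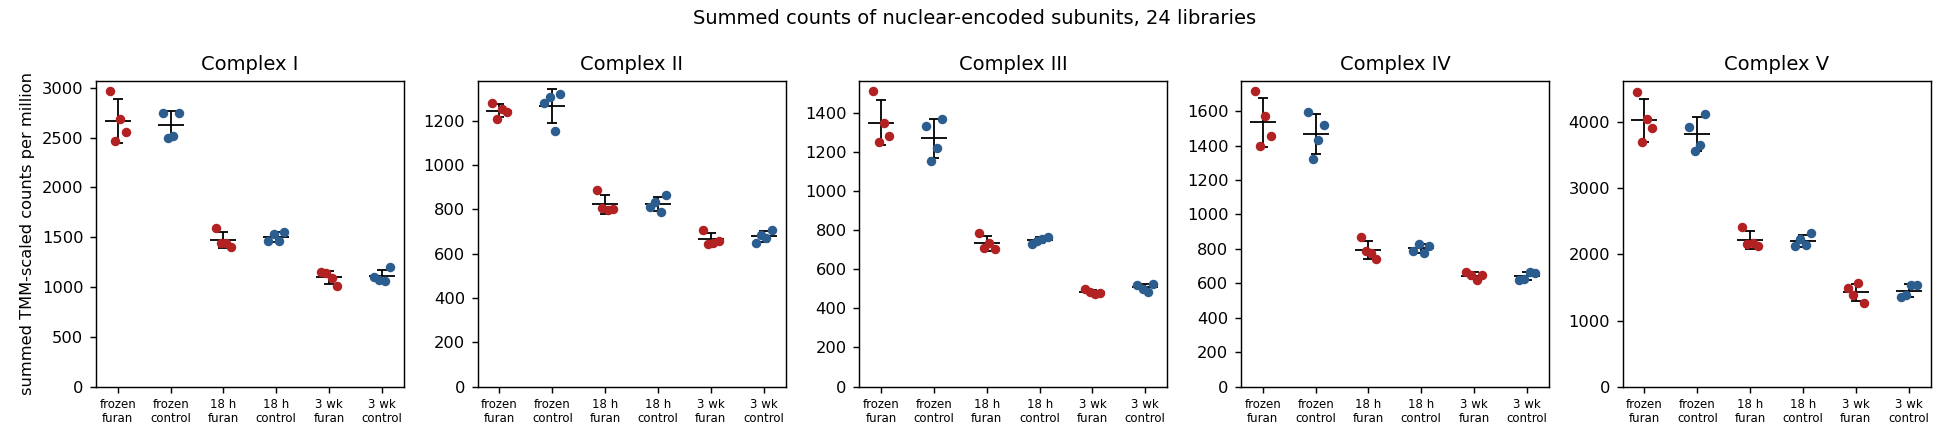
Summed TMM-scaled CPM of the members of each complex (y axis) in the 24 libraries (x axis: furan and control livers in each preservation). Points are animals and bars are group means with SD. In every complex both treatments step down together, in complex V for control livers with means of 3817.1 CPM frozen, 2207.1 CPM after 18 h and 1454.0 CPM after 3 weeks.

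Fixation was tested per gene with edgeR's quasi-likelihood test on 16 libraries at a time, with Benjamini-Hochberg adjustment over all genes and adjusted p below 0.05 as a call, and fold changes are log2 ± SE with the fixed or longer-fixed tissue on top. Of 78 members tested after 18 h, 70 fell and 1 rose relative to frozen liver, while 27.3% of all genes fell and 26.6% rose. After 3 weeks 70 of 78 fell and 0 rose, against 25.8% and 23% of all genes. The median member changed by -0.82 and -1.19, with medians of 0.01 and -0.02 over all genes tested. In 49 members at 18 h all 8 fixed libraries lay below all 8 frozen ones (8.93% of all genes), and in 47 members at 3 weeks (11.4% of all genes), while none lay above them (8.64% and 7.78% of all genes). With library totals in place of TMM scaling the median of all genes moved to 0.34 and 0.40, and the members' medians to -0.49 and -0.76, so relative to all genes they stayed 0.83 and 1.16 lower. Under totals 62 members were lower and 2 higher at 18 h, and of all called genes 17.8% were lower instead of 50.6%. At 3 weeks these values were 60 and 0 members and 24.7% instead of 52.9%. Without the frozen library of control animal 3 the calls were 72 and 69 members, and without the 4 libraries with muscle genes 70 and 70.

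**Figure D3:**
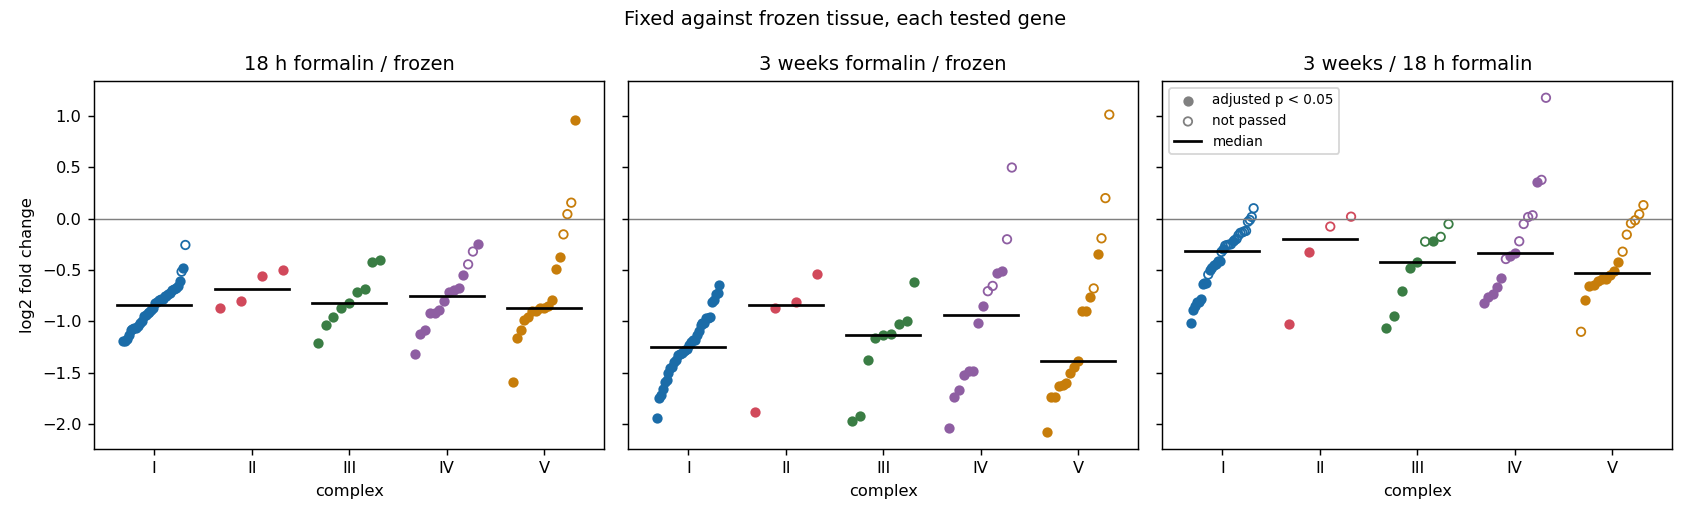
Log2 fold changes of the tested members (y axis) by complex (x axis) for 18 h fixed against frozen, 3 weeks fixed against frozen and 3 weeks against 18 h. Filled points passed an adjusted p of 0.05, open points did not, and the line is the complex's median. Nearly all points lie below 0 in the panels against frozen, with medians between -0.87 and -0.68 at 18 h and between -1.38 and -0.84 at 3 weeks.

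All 5 complexes took part. Of complex I, 32 of 34 tested members fell at 18 h and 34 of 34 at 3 weeks (medians -0.85 and -1.25), with core subunits at -0.75 and -1.23 and accessory subunits at -0.87 and -1.26. Of complex II, 4 of 4 fell at both times (-0.68 and -0.84), and of complex III, 9 of 9 (-0.82 and -1.13). Of complex IV, 12 and then 10 of 14 fell (-0.76 and -0.93), and of complex V, 13 of 17 at both times (-0.87 and -1.38). In complexes IV and V the members that did not pass included those with few counts, Cox7c, Ndufa4l2 and Atp5l.

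In complex I, the subunit that binds NADH and the flavin, Ndufv1, fell most at 3 weeks. It had 156, 147, 152 and 124 CPM in furan livers and 131, 225, 155 and 150.4 CPM in control livers when frozen. After 18 h it had 87.1, 76.8, 78.4 and 70.8 CPM in furan livers and 72.7, 90.8, 80.8 and 89.6 CPM in control livers, and after 3 weeks 44, 51.4, 41.2 and 38.9 CPM in furan livers and 38.9, 26.7, 32.2 and 47.1 CPM in control livers. The 3 preservations did not overlap in a single library, and the changes against frozen tissue were -0.94 ± 0.09 at 18 h and -1.94 ± 0.12 at 3 weeks (adjusted p = 7.67e-08 and 1.66e-12). Ndufs4, an accessory subunit near the NADH end, had the largest fall at 18 h, -1.20 ± 0.08, with 31.4 to 37.9 CPM in furan and 30.1 to 35.1 CPM in control livers, against 67.9 to 89.4 and 68.4 to 90.0 CPM when frozen. At 3 weeks it stood at -1.44 ± 0.12, and the difference between the fixation times did not pass (-0.25, adjusted p = 0.107). Other core subunits fell as well. Ndufs1, the largest of them, changed by -0.89 ± 0.07 and -1.50 ± 0.10, Ndufs3 by -0.75 ± 0.09 and -1.23 ± 0.20, Ndufs8 by -0.92 ± 0.11 and -1.72 ± 0.16 and Ndufv2 by -0.68 ± 0.12 and -0.97 ± 0.13, in each case at 18 h and then 3 weeks. Ndufs7, next to the ubiquinone site, fell least of the core, with changes of -0.48 and -0.72, and its fixed and frozen libraries overlapped at both times.

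Of the 4 succinate dehydrogenase genes, 2 fell further with the longer fixation. Sdhb had 235, 193, 203 and 194 CPM in furan livers and 187, 349, 187 and 216 CPM in control livers when frozen. After 18 h it had 137, 112, 114 and 112 CPM in furan livers and 112, 121, 121 and 138 CPM in control livers and after 3 weeks 57.6, 64.9, 51.6 and 71.2 CPM in furan livers and 44.8, 55.6, 53.8 and 74 CPM in control livers. The preservations again did not overlap, and the changes were -0.87 ± 0.11 and -1.88 ± 0.13. Between 18 h and 3 weeks Sdhb fell by a further 1.02 on the log2 scale (SE 0.09, adjusted p = 2.16e-09) and Sdha by 0.33 (SE 0.05, adjusted p = 6.01e-06). For the membrane anchors Sdhc and Sdhd this difference was -0.08 ± 0.06 and 0.02 ± 0.06, and did not pass (adjusted p = 0.386 and 0.858). Against frozen tissue all 4 had fallen, Sdha by 0.50 and 0.81, Sdhc by 0.80 and 0.87 and Sdhd by 0.56 and 0.53 at 18 h and 3 weeks. The difference between these genes in their change was not tested.

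In complex III the core proteins and the redox subunits fell together. Uqcrc2 had 466, 359, 391 and 409 CPM in furan livers and 412, 284, 345 and 404 CPM in control livers when frozen, 216, 187, 195 and 185 CPM in furan livers and 177, 178, 174 and 189 CPM in control livers after 18 h and 102, 90.6, 101 and 103 CPM in furan livers and 117, 69.5, 83.8 and 106 CPM in control livers after 3 weeks. The changes of -1.03 ± 0.08 and -1.97 ± 0.10 left no overlap between preservations. Its partner Uqcrc1 changed by -0.87 ± 0.08 and -1.92 ± 0.11 and had the largest fall of the complex between 18 h and 3 weeks, -1.07 ± 0.09. Cyc1, the cytochrome c1, changed by -0.43 ± 0.06 and -1.12 ± 0.09, and the Rieske iron-sulfur protein Uqcrfs1 by -0.82 ± 0.08 and -1.02 ± 0.09. The small subunit Uqcrb had the largest fall at 18 h, -1.21 ± 0.25, but its fixed libraries, with 16.6 to 21.7 CPM in furan and 18.6 to 21.3 CPM in control livers, overlapped the frozen range of 45.4 to 60.3 CPM in furan and 9.60 to 54.4 CPM in control livers. The lowest frozen value was that of control animal 3, and without that library the change was -1.37.

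In complex IV the falls were uneven. Ndufa4 had 77.3 to 88.8 CPM in furan and 75.2 to 81.6 CPM in control livers at 18 h and 42.2 to 55.9 and 25.2 to 60.9 CPM at 3 weeks, against 191 to 245 and 80.8 to 239 CPM when frozen, with changes of -1.32 ± 0.15 and -2.03 ± 0.19. Cox4i1 changed by -0.92 ± 0.07 and -1.48 ± 0.09, Cox7a2 by -1.12 ± 0.08 and -1.48 ± 0.11, Cox5a by -0.70 ± 0.08 and -1.02 ± 0.10 and the zinc-binding Cox5b by -0.71 ± 0.13 and -1.52 ± 0.25. Cox8a, a small membrane subunit, hardly moved: it had 75.9, 52.8, 67 and 62.2 CPM in furan livers and 69.8, 54.2, 60.6 and 69.1 CPM in control livers when frozen, 61.8, 54.4, 54 and 52.7 CPM in furan livers and 49.9, 53.9, 46.6 and 59.7 CPM in control livers after 18 h and 69.3, 62.2, 47.4 and 59.7 CPM in furan livers and 52.5, 39.2, 50.7 and 60.2 CPM in control livers after 3 weeks. The change passed at 18 h (-0.24 ± 0.08, adjusted p = 0.0167) and not at 3 weeks (-0.20 ± 0.11, adjusted p = 0.138), and the libraries overlapped. Cox6c, another small membrane subunit, was the one member to rise between 18 h and 3 weeks. It had 121, 116, 101 and 114 CPM in furan and 97.3, 109, 96.8 and 111 CPM in control livers at 3 weeks, against 93.5, 78.8, 82.6 and 75.3 and 91.7, 91.3, 78.6 and 88.4 CPM at 18 h, a change of 0.36 ± 0.07 (adjusted p = 1.78e-04). All 8 libraries at 3 weeks lay above all 8 at 18 h, while against frozen tissue Cox6c had fallen at both times, by 0.89 and 0.51.

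In complex V the catalytic subunits followed the fixation closely. Atp5b had 1699, 1438, 1576 and 1533 CPM in furan livers and 1513, 1455, 1399 and 1604 CPM in control livers when frozen, 929.6, 844, 847 and 827 CPM in furan livers and 804, 848, 816 and 883 CPM in control livers after 18 h and 530.0, 479.7, 543 and 424 CPM in furan livers and 463, 449, 521 and 503 CPM in control livers after 3 weeks. No library overlapped between preservations, and the changes were -0.85 ± 0.06 and -1.63 ± 0.07 (adjusted p = 8.79e-10 and 3.31e-15). Atp5a1 changed by -0.87 ± 0.06 and -1.50 ± 0.08 and Atp5o, the subunit that ties the catalytic head to the stalk, by -0.79 ± 0.07 and -1.38 ± 0.12. Atp5k, the small membrane subunit e, had the largest fall of any member at 18 h, with 12.4 to 16.5 CPM in furan and 12.2 to 14.2 CPM in control livers, against 39.5 to 56.9 and 33.2 to 43.6 CPM when frozen (-1.59 ± 0.09). It changed no further to a degree that passed (-0.16 ± 0.19, adjusted p = 0.579). Atp5g1 fell by 2.08 (SE 0.49) at 3 weeks, where its libraries held 0 to 1.32 CPM in furan and 0.673 to 3.09 CPM in control livers, against 3.73 to 6.96 and 2.50 to 6.29 CPM when frozen, and overlapped. Atp5d, the delta subunit of the central stalk, did not pass at 18 h with 0.15 ± 0.09 (adjusted p = 0.135) and then fell by 0.51 between 18 h and 3 weeks. Without control animal 3 its 18 h value passed as a rise of 0.23, and under library totals as a rise of 0.48. Atp5g2, the member that rose at 18 h (0.96 ± 0.34, adjusted p = 0.0229), had 11 to 19 counts per 18 h library and 5 to 20 per frozen one. Its call was lost without control animal 2 or 6, without furan animal 41 or 43, in a fit of all 24 libraries and without a filter on low counts (adjusted p between 0.051 and 0.312). Atp5sl, not a subunit, changed by -0.15 ± 0.10 and -0.19 ± 0.12, neither of which passed.

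**Figure D4:**
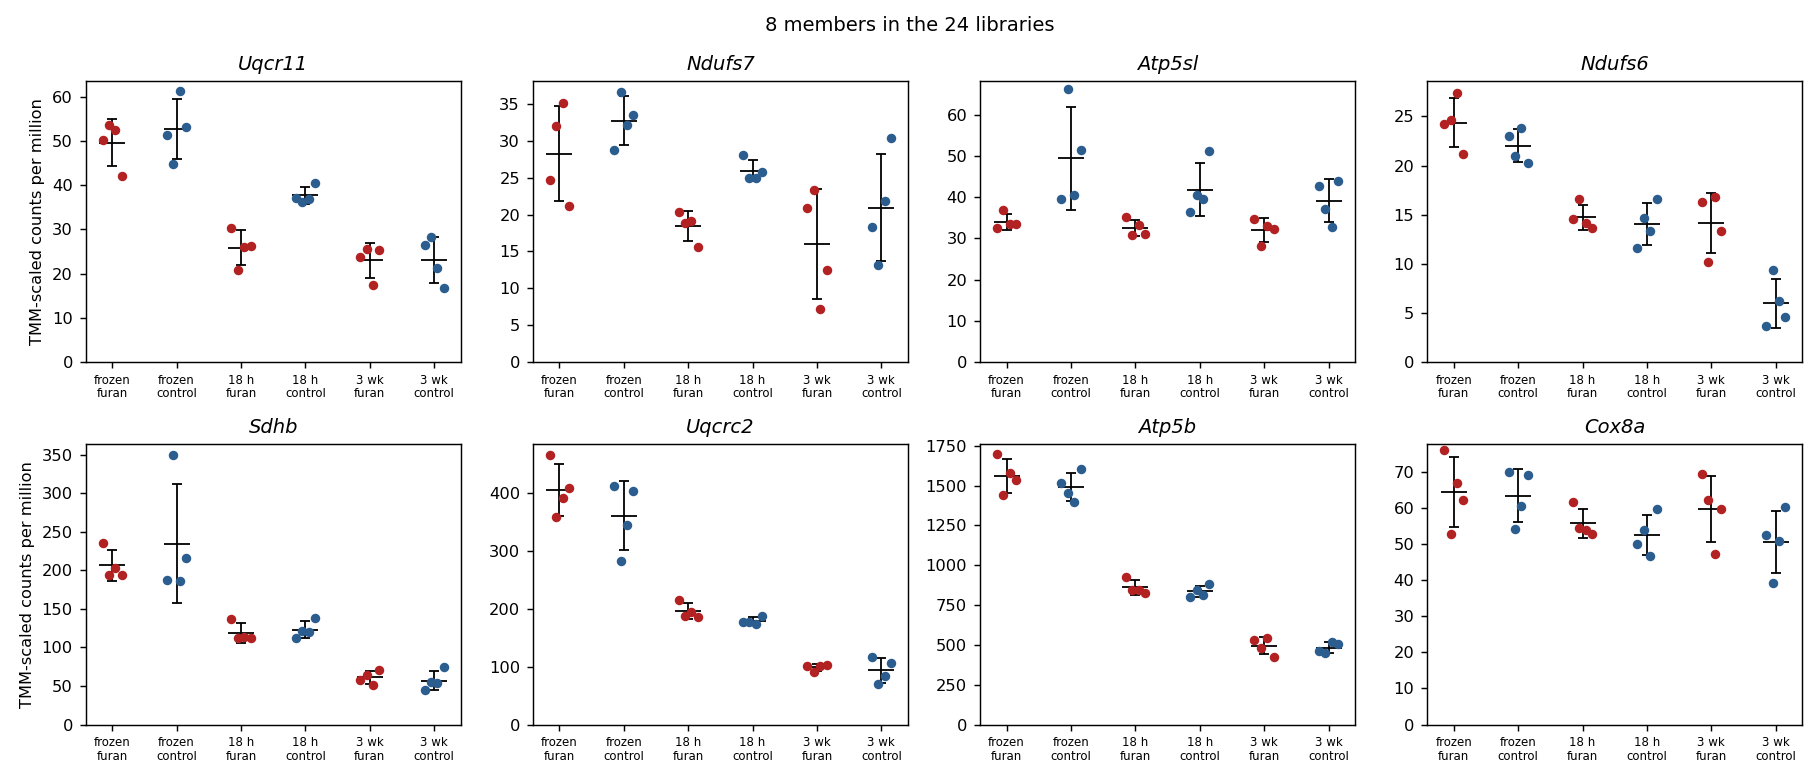
TMM-scaled CPM (y axis) of 8 members in the 24 libraries (x axis: furan and control livers in each preservation), with each animal as a point and group means with SD. Sdhb, Uqcrc2 and Atp5b step down in each preservation without overlap, Cox8a overlaps throughout, and Uqcr11, Ndufs7, Atp5sl and Ndufs6 show the furan comparisons.

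From 18 h to 3 weeks 40 of the members tested fell and 1 rose, against 17.5% and 14.9% of all genes, with a median of -0.35 against -0.05 over all genes. By complex the falls numbered 16 of 34, 2 of 4, 6 of 9, 7 of 15 and 9 of 16 from complex I to complex V. All 8 longer-fixed libraries lay below all 8 libraries of the shorter fixation in 24 members (5.42% of all genes) and above them in Cox6c alone (3.86% of all genes). Without the 4 libraries with muscle genes 44 members passed. Under library totals 34 members fell and 1 rose, and 40.3% of all called genes were lower instead of 54.1%.

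Transcript length and base composition are set beside these values. Members are short, with a median transcript of 765 bases (315 to 4715) and 51.7% GC. All genes under 1000 bases had medians of -0.35 at 18 h and -0.49 at 3 weeks, and the members among them -0.82 and -1.13. Among genes under 1000 bases with a mean log2 CPM of 4 to 6, the medians were -0.70 over 155 genes and -0.97 over 169 genes, members included, and -0.90 for 27 and -1.26 for 29 members. The part of length and level in the members' fall was not tested. Among the members themselves, Spearman's rho of the change with length was 0.07 at 18 h and -0.27 at 3 weeks. That with GC was 0.31 and 0.09, over 78 genes that share libraries. Over all genes tested the values were 0.33 and 0.32 for length and 0.11 and -0.15 for GC. The frozen library of control animal 3, which varied with GC, is included in these values and in the medians that follow. The 18 h medians were -1.13 for members under 45% GC and -0.74 for those of at least 55%.

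Other gene lists differed in direction. Over all genes 27.3% fell and 26.6% rose at 18 h, and 25.8% fell and 23% rose at 3 weeks. Mitochondrial ribosomal proteins fell in 66 of 75 genes at 18 h and 60 of 75 at 3 weeks, with medians of -0.63 and -1.01. Cytosolic ribosomal proteins fell in 41 of 74 and 28 of 68 and rose in 1 and 3, with medians of -0.47 and -0.51. Of the hepatocyte markers, 9 and then 10 of 10 fell, with medians of -0.74 and -1.33. Of 8 macrophage markers 7 and then 6 fell (medians -0.69 and -0.68), and of 9 markers of sinusoidal endothelium 5 and then 4 (medians -0.19 and -0.26). Of 8 stellate cell markers 4 fell at 18 h, and 3 fell and 3 rose at 3 weeks. Cholangiocyte markers rose in 2 and fell in 1 of 5 at 18 h, and rose in 1 and fell in 1 of 6 at 3 weeks. Of the brown adipocyte markers 2 were tested, of which 1 rose and 1 fell at 18 h and 1 rose at 3 weeks. The part of these marker lists in the members' change was not tested.

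The other genes of the pathway were taken from lists of assembly factors, mobile carriers, regulators and carriers of adenine nucleotides. Of 80 tested, 50 fell and 7 rose at 18 h, 42 fell and 10 rose at 3 weeks, and 15 fell and 12 rose between the fixation times. Over all genes 27.3% fell and 26.6% rose at 18 h, 25.8% and 23% at 3 weeks, and 17.5% and 14.9% between the times, the last near the shares of the pathway genes. Assembly factors fell in 33 of 46 genes at 18 h and rose in 2, and fell in 27 and rose in 4 at 3 weeks. Their list also held the inhibitor Atpif1 and the subunits Usmg5 and 2010107E04Rik of complex V, which are not assembly factors. Surf1, an assembly factor of complex IV, changed by -0.93 ± 0.07 and -1.81 ± 0.14, and Lrpprc, which stabilises mitochondrial messengers, by -0.60 ± 0.06 and -0.96 ± 0.08. Bcs1l, which inserts the Rieske protein into complex III, changed by -1.68 ± 0.25 at 3 weeks, and Ecsit, of complex I assembly, by -1.67 ± 0.18. Ttc19, a complex III factor, rose, by 0.46 and 0.88. Of the mobile carriers, for ubiquinone synthesis and cytochrome c, 11 of 13 fell at 18 h, while at 3 weeks 6 fell and 1 rose, and cytochrome c itself, Cycs, rose by 1.09 (SE 0.16) between 18 h and 3 weeks. Of 15 regulators, 4 rose and 2 fell at 18 h, and 4 rose and 5 fell at 3 weeks, so that the share that rose was near that of all genes. Pprc1 (1.39 ± 0.14) and Ppargc1b (1.07 ± 0.18), coactivators of mitochondrial genes, rose at 18 h, as did the uncoupling protein Ucp2 (0.77 ± 0.10). Tfam, which packages and transcribes mitochondrial DNA, fell (-0.46 ± 0.08), as did Slc25a5, the adenine nucleotide carrier (-0.83 ± 0.08).

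Furan and control livers were compared within each preservation, 4 animals against 4, with fold changes as log2 of furan over control. In frozen liver no member passed (edgeR, 78 tested, 2 with an unadjusted p below 0.05), while 2.78% of all genes did, 1.57% as higher and 1.2% as lower. The median was 0.07, against -0.01 over all genes. By complex the medians were 0.06 for I, 0.03 for II, 0.04 for III, 0.13 for IV and 0.07 for V. Members whose libraries did not overlap numbered 2 below and 0 above control, with 6.3% and 7.19% of all genes. These were Atp5sl and the muscle isoform Cox7a1. Atp5sl had 32.4, 36.8, 33.5 and 33.4 CPM in furan livers and 39.5, 66.3, 40.6 and 51.4 CPM in control livers, a change of -0.54 ± 0.16 with adjusted p = 0.107. Cox7a1 had 1.22, 0.792, 1.24 and 0.929 CPM in furan livers and 1.39, 3.01, 1.49 and 1.44 CPM in control livers (-0.81 ± 0.33, adjusted p = 0.227). The highest control value of both genes was that of animal 3. Without that library 1 member passed, Atp5sl with -0.36 (adjusted p = 0.0466), along with 8.03% of all genes, and the members' median was 0.02. Across the 78 members the change correlated with GC content at a Spearman's rho of -0.45, as it did over all genes at -0.32, with control animal 3 included. Without that library the values were -0.05 and -0.02. Under library totals the share of lower genes among all those called was 32.8% instead of 43.4% in frozen tissue and 48.2% instead of 58.5% at 3 weeks.

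Furan and control values of the succinate dehydrogenase genes overlapped in frozen liver. Sdha had 519, 573, 567 and 581 CPM in furan livers and 610.3, 614, 537 and 643 CPM in control livers, and Sdhb had 235, 193, 203 and 194 CPM in furan livers and 187, 349, 187 and 216 CPM in control livers. Sdhc ranged from 170.2 to 194 CPM in furan livers and from 133 to 189.7 CPM in control livers, and Sdhd from 272 to 331 CPM in furan livers and from 213 to 295 CPM in control livers. Their changes were -0.10 ± 0.10, -0.18 ± 0.19, 0.16 ± 0.12 and 0.15 ± 0.13 from Sdha to Sdhd, and none passed. Core subunits of the other complexes did not pass either, with 0.07 ± 0.13 for Ndufs1, -0.19 ± 0.16 for Ndufv1, 0.17 ± 0.14 for Uqcrc2, 0.13 ± 0.11 for Cyc1, -0.07 ± 0.12 for Cox4i1 and 0.07 ± 0.10 for Atp5b. Ndufb3 (-0.27 ± 0.13) and Cox5a (0.27 ± 0.14) had the next smallest p after Atp5sl and Cox7a1, with adjusted p = 0.319 and 0.325. Furan animal 41 gave the highest of the 8 frozen values in 34 of 72 members, and in 1386 of 9610 genes over all.

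After 18 h in formalin, 6 of 78 members fell with furan and 0 rose, against 7.72% and 7.82% of all genes. The share of members that fell was thus close to the background. The median of the members was -0.03, against -0.0025 over all genes. Libraries did not overlap in 10 members below (10.4% of all genes) and 1 above (9.59% of all genes).

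Of the 6, 4 are subunits and 2 are not. Uqcr11, the smallest subunit of complex III, had 30.4, 20.7, 25.9 and 26.3 CPM in furan livers and 37.1, 36.3, 36.9 and 40.6 CPM in control livers. Every furan library lay below every control library, and the change was -0.54 ± 0.10 (adjusted p = 0.00146). Ndufs7, the core subunit of complex I that holds its terminal iron-sulfur cluster, had 20.3, 18.8, 19.2 and 15.6 CPM in furan livers and 28, 25, 25 and 25.8 CPM in control livers, again with no overlap (-0.48 ± 0.10, adjusted p = 0.0029). Ndufb7, an accessory subunit of the membrane arm, had 18, 14.8, 14.7 and 15.9 CPM in furan livers and 22.4, 21.9, 22.3 and 19.9 CPM in control livers (-0.44 ± 0.10, adjusted p = 0.00589). Cox4i1 had 164, 140.3, 143 and 137 CPM in furan livers and 160.1, 173, 172 and 170.4 CPM in control livers, with overlap, and changed least (-0.20 ± 0.07, adjusted p = 0.0429). Among the non-subunits, Atp5s had 2.42, 2.50, 3.97 and 3.88 CPM in furan livers and 5.55, 5.91, 6.09 and 7.01 CPM in control livers (-0.93 ± 0.21, adjusted p = 0.00505). Atp5sl had 35.1, 30.8, 33.1 and 31 CPM in furan livers and 36.3, 40.5, 39.5 and 51.2 CPM in control livers (-0.35 ± 0.10, adjusted p = 0.0193). Neither overlapped.

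These 6 calls were of unequal strength. Without furan animal 44, whose library held muscle counts, 4 remained: Uqcr11, Ndufs7, Atp5s and Ndufb7. Atp5sl was also lost without furan animal 42 or control animal 6, and Cox4i1 without any of control animals 3, 4 and 6 or furan animals 42 and 43. Under library totals Cox4i1 was lost (adjusted p = 0.0588) and Atp5o, the one member above control in every library (0.18 ± 0.07, adjusted p = 0.0728), passed as a rise of 0.21 (adjusted p = 0.0433). In a fit of all 24 libraries, which share an estimate of spread, none of the 6 passed (adjusted p between 0.0658 and 0.718), and 305 genes did in place of 2208. Across the 78 members the furan change at 18 h correlated with GC content at a Spearman's rho of -0.27, and over all genes at -0.19. The part of base composition was not tested.

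**Figure D5:**
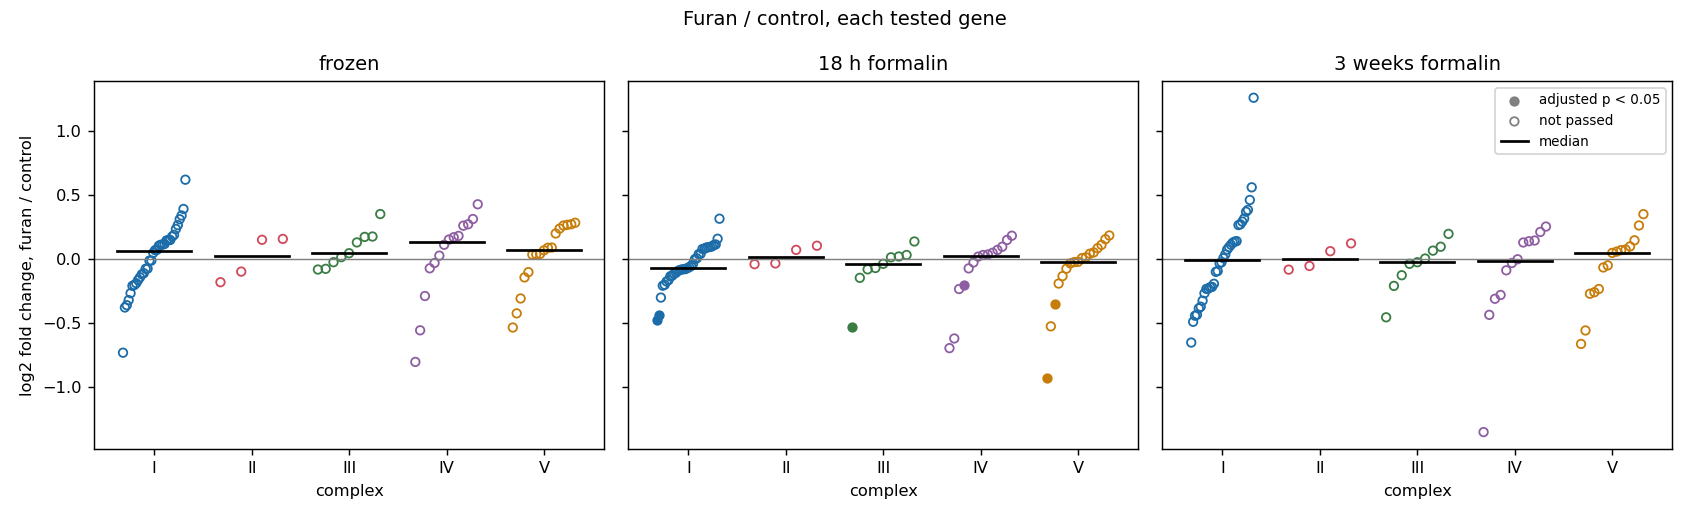
Log2 fold changes of furan over control (y axis) by complex (x axis) in frozen liver, after 18 h and after 3 weeks in formalin. Filled points passed an adjusted p of 0.05, open points did not, and the line is the complex's median. Points scatter around 0 in each panel, with 0, 6 and 0 members called.

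After 3 weeks in formalin no member passed (edgeR, 74 tested, 6 with an unadjusted p below 0.05), against 2.58% of all genes (1.07% higher and 1.51% lower), and the median was -0.01, or 0.02 under library totals. Without the 3 libraries with muscle genes it was again no member, with 98 genes called in place of 335. Ndufs6, an accessory subunit of complex I that binds zinc, had 16.3, 10.2, 16.8 and 13.3 CPM in furan livers and 3.70, 9.34, 6.16 and 4.62 CPM in control livers. Every furan library lay above every control library, and the change of 1.26 ± 0.40 had an adjusted p of 0.0994. Ndufs6 had 43 to 185 counts per library at this stage and a pseudogene at 96.6% identity. Ndufs1 followed with 0.46 ± 0.16 (adjusted p = 0.134), Ndufa6 with -0.44 ± 0.16 (adjusted p = 0.191) and Uqcrq, a small subunit of complex III, with -0.46 ± 0.20 (adjusted p = 0.294). Of all genes 3.88% had all furan libraries above control and 4.8% below it, and among members these were Ndufs6 above and Cox4i1 below (-0.28 ± 0.13, adjusted p = 0.367). In the fit of all 24 libraries 4 members passed: Ndufs6 with 1.25 (adjusted p = 0.000686), Ndufs1 with 0.44 (0.0188), Ndufs4 with 0.54 (0.0207) and Uqcrq with -0.47 (0.0155). That fit called 1549 genes in all.

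Whether the furan effect differed between fixed and frozen pieces was tested directly with edgeR, and 0 members and 0% of all genes passed. An unadjusted p below 0.05 was reached by 239 of 14843 genes for 18 h against frozen and 585 of 14253 for 3 weeks against frozen. Both numbers lie below a share of 0.05 of the genes tested. That none passed does not show that the effects are equal. The members nearest to a difference for 18 h minus frozen were Uqcr11 (-0.44 ± 0.17), Atp5s (-0.61 ± 0.30) and Ndufb6 (-0.48 ± 0.24), each with adjusted p = 1. For 3 weeks minus frozen they were Ndufs6 (1.11 ± 0.36), Ndufs4 (0.57 ± 0.24) and Uqcrq (-0.44 ± 0.21), with adjusted p = 0.947, 1 and 1. With the animal as replicate block it was again 0 members and 0 genes, with 340 and 483 genes at an unadjusted p below 0.05. The furan values of the called members are therefore given side by side: Uqcr11 had -0.08 ± 0.13 in frozen, -0.54 ± 0.10 in 18 h and 0.00 ± 0.26 in 3-week tissue. Ndufs7 had -0.21 ± 0.17, -0.48 ± 0.10 and -0.37 ± 0.34, and Ndufb7 had -0.73 ± 0.38, -0.44 ± 0.10 and -0.65 ± 0.38. Cox4i1 had -0.07 ± 0.12, -0.20 ± 0.07 and -0.28 ± 0.13, Atp5s -0.31 ± 0.22, -0.93 ± 0.21 and -0.56 ± 0.82, and Atp5sl -0.54 ± 0.16, -0.35 ± 0.10 and -0.27 ± 0.20. The pieces come from the same animals, so these are not independent repeats. Without the frozen library of control animal 3, the frozen value of Ndufb7 was -0.06. Those of Uqcr11 and Ndufs7 were then -0.15 and -0.15, that of Cox4i1 -0.04, and those of Atp5s and Atp5sl -0.47 and -0.36. No member had furan libraries all above control in a preservation and all below it in another.

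Summed levels of cell type markers with furan are set beside these values. The 9 markers of sinusoidal endothelium summed to 637 CPM in furan and 813 CPM in control frozen livers, 601 and 743 CPM at 18 h and 552 and 627 CPM at 3 weeks. At 18 h 7 of the 9 fell, against 7.72% of all genes. Hepatocyte markers summed to 205558 CPM in furan and 201739 CPM in control frozen livers. Their sums were 133503 and 131692 CPM at 18 h and 83121 and 89730 CPM at 3 weeks. In frozen, 18 h and 3-week tissue 1, 5 and 3 of the 10 fell, against 1.2%, 7.72% and 1.51% of all genes. Rises among the endothelial and hepatocyte markers are not counted here. Of the frozen hepatocyte sums, Alb alone gave 144842 CPM in furan and 132503 CPM in control livers. The 8 macrophage markers summed to 450.3 ± 18.9 CPM in furan and 556 ± 203 CPM in control frozen livers (mean ± SD). The control values ran from 417 to 856 CPM, and no macrophage marker passed in any preservation. In frozen furan and control livers, stellate cell markers summed to 705 ± 47.6 and 746 ± 80.0 CPM. Lymphocyte markers summed to 33.0 ± 1.24 and 34.3 ± 13.5 CPM, and cholangiocyte markers to 50.8 ± 7.36 and 54.5 ± 5.29 CPM. The part of a shift in cells in the members' values was not tested.

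Among the other pathway genes, none of 80 passed with furan in frozen or 3-week tissue, and at 18 h 4 rose and 3 fell. Both shares lay below those of all genes, 7.82% higher and 7.72% lower. Ppargc1b, a coactivator of mitochondrial genes, fell by 0.90 (SE 0.12, adjusted p = 5.91e-05) at 18 h and stood at -1.09 ± 0.32 (adjusted p = 0.0951) in frozen and -0.91 ± 0.37 (adjusted p = 0.238) in 3-week tissue. Esrra, the nuclear receptor it works with, fell by 0.54 (SE 0.12, adjusted p = 0.00546), and the third regulator called, Pprc1, rose (0.63 ± 0.12, adjusted p = 0.00224). Of the carriers, Coq10a, which binds ubiquinone, fell (-0.65 ± 0.10, adjusted p = 4.20e-04) and Pdss1, which makes its side chain, rose (0.67 ± 0.22, adjusted p = 0.0464). Atpif1, the inhibitor of ATP synthase, rose (0.45 ± 0.13, adjusted p = 0.0224), as did Sco1, a copper chaperone of complex IV (0.36 ± 0.10, adjusted p = 0.0231). In frozen tissue Atpif1 stood at 0.49 ± 0.13, Sco1 at 0.47 ± 0.13 and Coq10a at -0.46 ± 0.12, with adjusted p from 0.0697 to 0.0951 for these and Ppargc1b. None of these 7 passed in the fit of all 24 libraries at 18 h.

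Members outside these tests for lack of counts were the isoforms of other tissues and a few with copies. Cox7b2, Cox8c and Ndufs5 had no count in any library. Cox4i2 had 48 counts over 11 libraries, Cox6a2 30, Cox8b 37 and Cox6b2 148, the last tested only between the fixation times. Atp5g2, Atp5l, Cox7c and Ndufa4l2 were left out of the furan comparison at 3 weeks, and Atp5l also out of that of 3 weeks against 18 h.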

How the data were processed

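RNA was measured in 24 liver libraries, 4 animals in each of 6 groups. The authors deposited raw read counts per gene symbol, whole numbers without normalization, 1 column per library. The submitters' processing notes name CASAVA 1.8.2, STAR 2.3.0, featureCounts 1.4.4 and the build mm9. The gene models, strand setting and treatment of reads with several places are not given in the sources used here. Without strand, reads of overlapping antisense genes cannot be told apart. No column was left unmapped, and no pair of columns was identical.

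Tests used edgeR 4.0.16 under R 4.3.3 (TMM scaling, filterByExpr by group, robust quasi-likelihood test, two-sided, Benjamini-Hochberg adjustment over all genes tested, threshold 0.05), tested on simulated data. Each furan comparison used its own 8 libraries. Preservations, averaged over treatments, and the difference of the furan effect used the 16 libraries concerned. The filter left 12983 to 14843 genes. Library totals were 5.56 to 49.3 megacounts, so low members at 3 weeks rest on few counts. P-values cover the spread between 4 animals a group, and intervals and floors (3 counts over a group) cover counting error only. CPM are scaled by TMM over all 24 libraries. RPKM divide them by transcript length from a GRCm38 annotation, which is not the authors' build and served for length, GC content and copies only (23645 symbols matched, 954 by a synonym). Near-identical copies were found with blastn 2.17.0. Promoters and their coordinates are RefSeq's on GRCm38.p6.

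Animal numbers are shared between preservations because each liver was divided, so they pair the libraries. Deviations from group means correlated at -0.0013 to 0.41 over 24 same-animal pairs, above 0.1 in 16. The fit with the animal as block was an alternative, besides DESeq2 1.42.0 (size factors and test), library totals, no filter, all 24 libraries in 1 fit, thinning to the smallest library and leaving out each library. Leaving out the libraries with muscle genes, or the frozen library of control animal 3 alone, was chosen after seeing the data. The members, gene lists and tests were chosen with earlier results of these data known. Members are named with values by a rule: succinate dehydrogenase and core subunits, called members or the 4 of smallest p per furan comparison, the largest rise and fall per complex and preservation comparison, the 3 of smallest p per difference of effects, isoform families and members that failed the filter, plus up to 3 called genes per other list. One result under this rule is not reported here. Atp5d, Atp5o and Atp5sl among the fixation results and Atp5o with furan were named after their values were seen.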

Additional observations from a re-analysis of the deposited data

Results flagged for a closer look

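Among 268 groups of 4 libraries examined, 16 held a value farther from its neighbours than Dixon's 95% criterion allows, where chance gives about 1 in 20. In the frozen library of control animal 3, Cox6a1 had 377 CPM against 153 to 162 CPM in the other controls, Ndufb7 89.7 CPM against 22.9 to 29.8 CPM and Ndufs8 93.5 CPM against 50.2 to 55.9 CPM. In the 18 h library of furan animal 41, Cox6b1 had 87.5 CPM against 76.9 to 78.5 CPM, Cox7b 68.7 CPM against 49.7 to 52.8 CPM, Ndufa4 88.8 CPM against 77.3 to 79.2 CPM and Sdhb 137 CPM against 112 to 114 CPM in the other furan livers. The summed levels of that library were also high, 886 CPM against 796 to 805 CPM for complex II and 2415 CPM against 2134 to 2166 CPM for complex V. The same animal had 236 CPM of Uqcrfs1 in frozen tissue against 192 to 199 CPM, and 79.1 CPM of Cox7a2 at 3 weeks against 51 to 53.8 CPM.

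Among single genes, Ndufb7 had 20.2 CPM in frozen furan animal 44 against 26.4 to 27.5 CPM. Sdhc had 97.4 CPM in furan animal 42 at 18 h against 104 to 105 CPM. At 3 weeks Uqcrc1 had 37.0 CPM in furan animal 44 against 55 to 56.2 CPM, Uqcrc2 had 90.6 CPM in furan animal 42 against 101 to 103 CPM, and Cox5b had 15.5 CPM in control animal 2 against 7.41 to 8.01 CPM.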

How the results depend on the processing

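With furan, the count of members called in frozen tissue was 1 instead of 0 under the DESeq2 test, in a fit of all 24 libraries and without control animal 3, in each case Atp5sl, and 0 to 1 over the libraries left out in turn. At 18 h it was 0 instead of 6 in the fit of all 24 libraries and 4 to 7 over the libraries left out, and Ndufs7 was lost when libraries were thinned (adjusted p = 0.0765). At 3 weeks it was 4 instead of 0 in the fit of all 24 libraries and 0 over every library left out. The other pathway genes called with furan numbered 1 (library totals), 5 (DESeq2 test), 1 (all 24 libraries) and 0 to 4 (libraries left out) instead of 0 in frozen tissue, 0 (all 24 libraries) and 4 to 6 (libraries left out) instead of 7 at 18 h, and 7 (all 24 libraries) instead of 0 at 3 weeks. The cause was not tested.

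For fixation, the members called ranged over the libraries left out from 67 to 72 at 18 h and from 68 to 70 at 3 weeks against frozen, and from 39 to 41 between the fixation times. Their medians ranged from -0.85 to -0.82, from -1.25 to -1.13 and from -0.39 to -0.32. Library totals moved the medians to -0.49, -0.76 and -0.25 by a change in scale, and the other pathway genes called at 18 h to 37 from 57. With the animal as replicate block, which pairs the pieces of a liver, 72, 68 and 44 members passed in place of 71, 70 and 41, and the median between the fixation times was -0.44 in place of -0.35. Without scaling by length the share of Atp5g3 in control frozen livers was 97.5%. The furan medians lay between 0.01 and 0.11 in frozen, -0.07 and -0.00 in 18 h and -0.05 and 0.01 in 3-week tissue over the libraries left out. No called value changed sign among those computed, while the furan median at 3 weeks was 0.02 with library totals instead of -0.01.

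Counts over all genes were less stable. In frozen tissue 392 genes passed with furan, but 1066 with DESeq2, 238 after thinning and 99 to 1148 over the libraries left out. At 18 h 305 passed with all 24 libraries instead of 2208, at 3 weeks 1549 instead of 335, with 218 without furan animal 44, and 5224 instead of 8006 between 18 h and frozen. The difference of the furan effect at 3 weeks gave 0 genes, but 9 with DESeq2, 4 with all 24 libraries, 16 without the muscle libraries and 1 without control animal 4. At 3 weeks libraries held as few as 5.56 megacounts, which limits the members of low level.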
